A study of Mus musculus with 6 samples.

Results

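The clustered protocadherins of the mouse are cell-surface adhesion proteins encoded side by side in an alpha, a beta and a gamma cluster on 1 chromosome. Members were taken by gene symbol (Pcdha and Pcdhac, Pcdhb, and Pcdhga, Pcdhgb and Pcdhgc, each followed by a number), which gave 58 of the 55809 symbols in the deposited count tables. Of these, 14 belong to the alpha cluster, 22 to the beta cluster and 22 to the gamma cluster. Transcripts had been counted in dorsal root ganglia of 8-week-old C57BL6J offspring. The prenatal stress group held 3 pools of 3 mice each, from dams restrained in tubes under a bright light in 3 daily sessions of 30 min from embryonic day 13.5 until shortly before birth. The control group held 3 pools of 3 mice each, from dams left undisturbed. Pool sizes follow the sample titles and the series text, whereas the treatment label speaks of 3 mice per group and of stress from embryonic day 13, a difference that the labels do not settle. The labels give no litter, cage or sex for a pool, so a p-value here reflects how far pools differ, and the part of litter cannot be told apart.

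In the alpha and gamma clusters each member has its own large first exon with its own promoter, and this exon is spliced to constant exons that all members of the cluster share. Beta members have no constant exons. Promoter choice depends on looping of DNA by CTCF and cohesin, and in many neurons a few alternate members are chosen cell by cell, while the so-called C-type members, which lie at the end of the alpha and gamma clusters, are chosen more widely. The proteins bind copies of themselves on other cells, which lets a neuron tell its own branches from those of its neighbours. In mouse sensory neurons, gamma protocadherins are known to act in synapse formation and peripheral branching of touch afferents.

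Markers of the labelled tissue were abundant: the sensory neuron gene Avil stood at 1038 to 1088 CPM and the sodium channel gene Scn10a at 1158 to 1335 CPM in stress pools, against 1071 to 1086 and 1021 to 1194 CPM in control pools (CPM: counts per 1e6 gene counts, scaled with TMM factors). Stress pools held 51.7 to 77.6 M gene counts and control pools 65.0 to 87.4 M, of which 18693 to 27597 and 22649 to 30571 counts fell on the members. Transcripts of spinal cord cells differed between pools of the same group. The 15 central nervous system markers, none at 0 in any pool, summed to 59.6, 310 and 94.4 CPM in stress pools 1 to 3 and to 51.7, 284 and 207 CPM in control pools 1 to 3. Mobp, Slc1a2 and Aqp4 carried much of the sum (131, 76.5 and 35.2 CPM in stress pool 2). Gjb6 did not follow the sum, at 9.19, 7.60 and 4.38 CPM in stress pools and 8.76, 6.86 and 3.26 CPM in control pools. In whole ganglia, fewer cells of a type and less RNA per cell cannot be told apart.

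What a member's count holds depends on its exons. In the GENCODE M21 annotation, which may not be the one the counts were made with, alpha members other than Pcdha4, Pcdha6, Pcdha7 and Pcdha11 share 2860 to 2864 bases of exon with another gene, and gamma members share at least 2116 bases. Reads there can be lost as ambiguous, and ambiguous reads made up 1.63 to 1.66% of each stress file and 1.67 to 1.69% of each control file. Beta members share none, apart from 455 bases common to Pcdhb21 and Pcdhb22. Levels are therefore compared between members per kb of own exon, meaning bases in no other gene of the same strand. Own exon is only a part of an alpha or gamma transcript but nearly all of a beta one. Read coverage along transcripts was not tested, so levels per kb of different clusters may not be like for like. Of the 100-base stretches of a member's own exon, those also found in transcripts of another gene made up at most 12.2% (Pcdha6), and 0% for every C-type member.

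Pcdha4 had 0 counts in all 6 pools, which allows a level of up to 0.034 to 0.058 CPM (3 counts per library, counting error only). In GENCODE M21, 5274 of its 5768 exon bases are shared with other genes of the same strand. Of these bases, 2410 are shared only with genes that are not members by symbol. The part of this overlap in the count was not tested. Pcdhb1 had 1, 0 and 1 counts in stress pools and 1, 0 and 1 in control pools. These were the 2 members that did not pass the low-count filter, and 56 were tested. Pcdhga10 had 318, 258 and 182 counts in stress pools and 290, 225 and 309 in control pools. All 2613 of its own bases lie opposite an antisense gene in that annotation, Gm26672, which had 54, 41 and 30 counts against 17, 28 and 49.

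C-type members led the family. The 5 of them took 37.0 ± 0.334% of all member CPM in stress pools and 36.7 ± 1.13% in control pools (SD, n = 3 pools each, as for all values given with ± below unless marked SE). Pcdhac2, which in the mouse guides the even spacing of serotonergic axons, was the most abundant member per kb. It stood at 65.0, 67.6 and 70.1 CPM in stress pools and at 55.4, 66.5 and 66.5 CPM in control pools. Control pool 1 was lowest and the groups overlapped (log2 fold change 0.11 ± 0.07 SE, edgeR adjusted p = 0.636).

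Pcdhgc3, a gamma member that in the mouse promotes dendrite growth through the Wnt regulator Axin1, stood at 36.4, 37.9 and 31.0 CPM in stress pools. In control pools it stood at 35.0, 34.6 and 34.5 CPM, well within the range of the stress pools. Pcdhac1, the other alpha C-type member, had 25.0, 23.1 and 26.1 CPM in stress pools and 19.8, 24.2 and 24.0 CPM in control pools, again with control pool 1 lowest. Per kb of own exon Pcdhac2 had a mean level of 22.3 ± 0.851 in stress pools and 20.7 ± 2.12 in control pools. Pcdhgc3 (10.4 ± 1.07 and 10.3 ± 0.0674) and Pcdhac1 (9.66 ± 0.605 and 8.86 ± 0.973) followed, and the gap between these neighbours was within the spread of the pools in the stress group.

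The remaining C-type members were far less abundant. Pcdhgc4, the gamma member on which survival of mouse spinal interneurons depends, had 4.997, 6.37 and 4.92 CPM in stress pools and 4.63, 5.04 and 4.70 CPM in control pools. The groups overlapped, with stress pool 2 highest of all pools (log2 fold change 0.18 ± 0.12 SE, edgeR adjusted p = 0.615). Pcdhgc5 had 0.542, 1.47 and 0.755 CPM in stress pools, against 0.620, 0.955 and 1.08 CPM in control pools. It was highest in stress pool 2 and lowest in stress pool 1, and its log2 fold change was 0.06 ± 0.39 SE (edgeR adjusted p = 0.975).

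The level of Pcdhgc5 went in part with the spinal cord transcripts of the pools, a match described after the values were seen. The 3 pools with the highest summed central nervous system markers, stress pool 2 and control pools 2 and 3, were also the 3 with the most Pcdhgc5. Stress pools 1 and 3 and control pool 1 were low for both. The match was not particular to Pcdhgc5. Pcdhgb1, also named after its values were seen, was highest in the same 3 pools. It had 2.94, 4.64 and 2.71 CPM in stress pools and 2.84, 2.96 and 3.36 CPM in control pools. Members with such a match were not counted. The part of spinal cord tissue in the level of Pcdhgc5 was not tested. Without stress pool 2 the log2 fold change of Pcdhgc5 was -0.46 (edgeR adjusted p = 0.574; range over 13 alternatives 0.574 to 0.999).

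**Figure D1:**
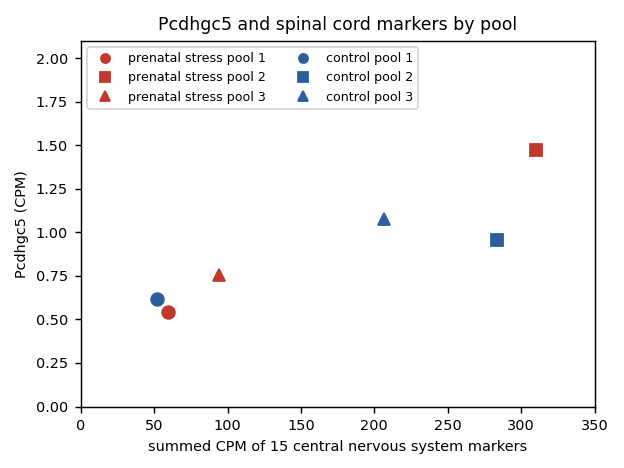
Pcdhgc5 in CPM against the summed CPM of 15 central nervous system markers, 1 point per pool, prenatal stress in red and control in blue. The points run from 0.542 CPM in stress pool 1 and 0.620 CPM in control pool 1, the pools with the lowest marker sums, to 1.47 CPM in stress pool 2, the pool with the highest.

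Among tested alternate members, levels per kb of own exon ranged from 0.0861 (Pcdha8) to 3.72 CPM per kb (Pcdhga3). The median over all 6 pools was 1.64 CPM per kb for the 11 tested alpha alternate members, 0.89 for the 21 tested beta members, 1.91 for the 12 gamma A members and 0.81 for the 7 gamma B members, against 9.26 for the 5 C-type members. Pcdha12, the alternate alpha member that lies last before the C-type exons, was the highest of its class at 2.99 and Pcdha8 the lowest at 0.0861, with 12, 12 and 16 counts in stress pools and 8, 21 and 17 in control pools. Over the 11 alpha alternate members the level did not follow the order along the chromosome closely (Spearman's rho 0.20 across members, a description). Values were 0.309 over 21 beta members and -0.411 over 19 gamma A and B members. Such members are neighbours counted in the same libraries and are not independent.

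Within the beta cluster, Pcdhb9, Pcdhb17 and Pcdhb22 had the highest levels per kb. Pcdhb9 had 10.6, 10.1 and 11.4 CPM in stress pools and 10.3, 11.6 and 11.3 CPM in control pools. Pcdhb17 had 10.7, 10.3 and 10.3 CPM against 10.8, 12.0 and 9.80 CPM, and Pcdhb22 had 13.2, 13.4 and 13.5 CPM against 13.3, 12.6 and 12.8 CPM. All 3 overlapped between the groups, with log2 fold changes of -0.05 ± 0.08, -0.06 ± 0.08 and 0.05 ± 0.05 SE (edgeR adjusted p = 0.853, 0.832 and 0.739).

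Within the gamma cluster, Pcdhga3 and Pcdhga11 were the highest alternate members. Pcdhga3 had 10.0, 10.8 and 9.59 CPM in stress pools and 9.20, 8.06 and 10.3 CPM in control pools. Pcdhga11 had 8.50, 8.39 and 7.49 CPM against 7.54, 8.20 and 7.17 CPM. Both overlapped between the groups (log2 fold changes 0.14 ± 0.10 and 0.09 ± 0.08 SE, edgeR adjusted p = 0.637 and 0.736). At the low end stood Pcdhgb8, annotated as a polymorphic pseudogene, at 0.097 CPM per kb.

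**Figure D2:**
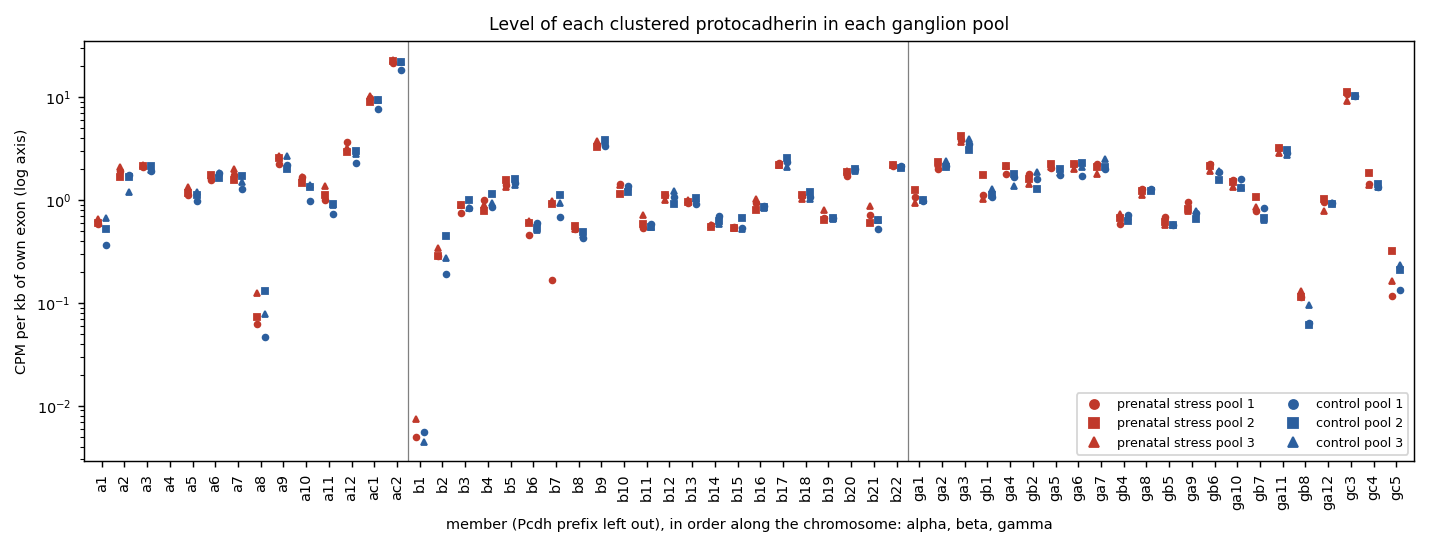
Level of each member in CPM per kb of own exon on a log axis, in order along the chromosome, with 1 point per pool, prenatal stress in red left of control in blue. Pools with 0 counts (all for Pcdha4, stress pool 2 and control pool 2 for Pcdhb1) have no point. Pcdhac2 stands highest at 22.3 and 20.7, and Pcdhb7 in stress pool 1 lies apart from the other 5 pools.

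The order of the members was alike in all pools. Over the 56 tested members, Spearman's rho between any 2 pools was 0.929 to 0.968 across genes. The spread between pools was also that of other genes of similar abundance. For the 42 members at 2 to 8 CPM, the median coefficient of variation within a group was 10.0% and the median biological coefficient of variation fitted by edgeR was 0.151. For 2846 other tested genes in that range the values were 9.81% and 0.154. The fit pulls each gene's biological coefficient of variation toward a trend over abundance. Likeness of the fitted values is thus partly built in.

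Pcdhb7, named after its values were seen, was the exception. It had 45, 211 and 178 counts in stress pools, which is 0.581, 3.201 and 3.45 CPM, and 167, 253 and 286 counts in control pools, which is 2.41, 3.90 and 3.28 CPM. Stress pool 1 alone was low, 4.14-fold below the next lowest pool, while the other stress pools lay inside the range of the controls. The neighbouring members did not share the drop: Pcdhb6 had 1.72, 2.26 and 2.34 CPM in stress pools against 2.23, 2.00 and 1.93 CPM in control pools. Pcdhb8 had 1.81, 1.96 and 1.82 CPM against 1.48, 1.71 and 1.61 CPM.

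Such a drop in 1 pool was rare in the table by a cut set at the ratio of Pcdhb7 itself. Among 15240 genes with a mean of at least 1 CPM, 11 including Pcdhb7 had a lowest pool at or below 0.241 of the next lowest, and in 7 of these the lowest was stress pool 1. The other 6 of the 7 included Epx, the eosinophil peroxidase, Elane, the neutrophil elastase, and Kel, a red cell surface protein. Those differed widely between the other pools as well (Epx 2.00 and 4.65 CPM in stress pools 2 and 3, and 1.01 to 2.15 CPM in control pools), whereas Pcdhb7 kept within 2.41 to 3.90 CPM there. A biological coefficient of variation as high as that of Pcdhb7 was less rare, fitted for 82 of 2846 other genes at 2 to 8 CPM (2.88%). Of the own 100-base stretches of Pcdhb7, 0.999% were found in other transcripts. Its log2 fold change was -0.42 ± 0.56 SE (edgeR adjusted p = 0.836), and without stress pool 1, an alternative chosen after seeing the data, it was 0.05 (edgeR adjusted p = 0.954, the only alternative run for it).

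**Figure D3:**
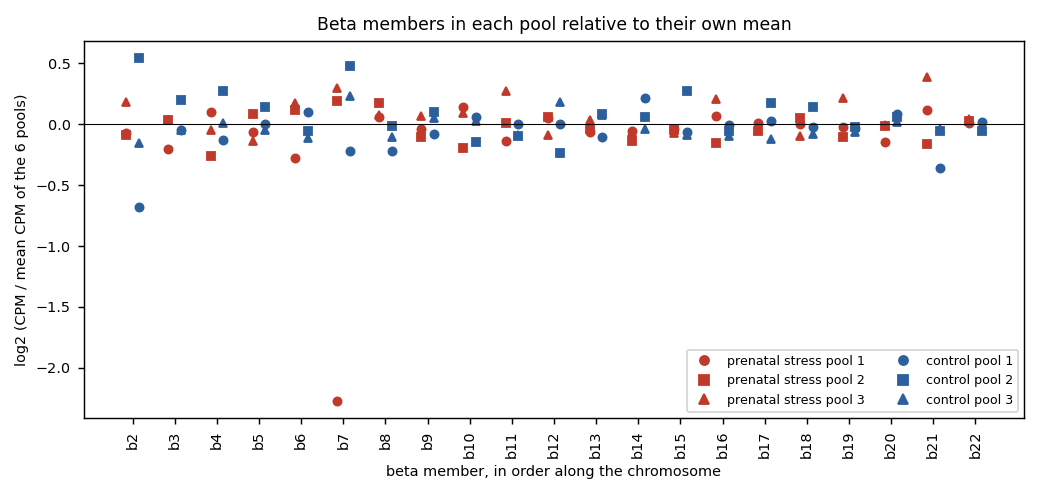
The 21 tested beta members in order along the chromosome, each pool's CPM as the log2 ratio to the member's mean over the 6 pools, prenatal stress in red left of control in blue. Pcdhb7 in stress pool 1 (0.581 CPM) is the only point below -1.

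The comparison of prenatal stress with control asked whether maternal stress late in gestation is followed by a difference in the adult ganglion. No member passed the edgeR quasi-likelihood test with Benjamini-Hochberg adjustment under 0.05 over 20146 genes (0 of 56, against 0.129% of all genes tested, 0.0844% higher and 0.0447% lower in stress pools). With DESeq2, 0 of the 52 members that had an adjusted p passed, against 2.07% of 14616 genes. At an unadjusted p under 0.05 edgeR took 3 of 56 members, all higher, which is 5.36% beside 11.1% of all genes (6.01% higher). DESeq2 took 3 of 57, beside 5.51% of all genes. The CPM of the groups did not overlap for 8 members, 14.3% beside 18.1% of all genes. These were Pcdha10, Pcdha11, Pcdhb8, Pcdhga5, Pcdhgb5 and Pcdhgb8 above the controls and Pcdhb14 and Pcdhb20 below, of which Pcdhb8, Pcdhgb5, Pcdhb14 and Pcdhb20 are named after their values were seen. By direction, 10.7% of members did not overlap and were higher, beside 9.33% of all genes, and 3.57% were lower, beside 8.76%. The other shares of members were below those of all genes, and the 10.7% was near its background.

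By sign, 39 of the 56 tested members (69.6%) had a positive log2 fold change, beside 52.3% of all genes. The median was 0.08 for the members and 0.01 for all genes. The alpha alternate members had a median of 0.23 with 10 of 11 positive (9 with RLE size factors, with no low-count filter, with a GC and length correction, and when stress pool 3, control pool 1 or control pool 3 was left out; 9 of 10 with DESeq2), the gamma members a median of 0.11 with 17 of 22 positive, and the beta members a median of -0.03 with 10 of 21 positive. Without control pool 1 the median of the alpha alternate members was 0.11, without stress pool 3 it was 0.15, and without both pools numbered 2 it was 0.43. Over the 56 tested members the log2 fold change rose with the GC percent of own exon (Spearman's rho 0.393, a description). The median GC of own exon was 46.1% for beta members, 52.9% for alpha alternate, 51.2% for gamma A and 52.1% for gamma B members. With a GC and length correction the median log2 fold change was 0.057 for all members and 0.208 for alpha alternate members. Differences between the clusters, and the part of GC in them, were not tested.

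The alpha members with the smallest p lie next to each other at the end of the alternate exons. Pcdha11 had 4.60, 5.19 and 6.39 CPM in stress pools and 3.40, 4.27 and 4.16 CPM in control pools. The groups did not overlap, but the lowest stress pool and the highest control pool were close (log2 fold change 0.45 ± 0.15 SE, unadjusted p = 0.0192, edgeR adjusted p = 0.378). In GENCODE M21, 3338 of its 4606 own bases lie opposite the antisense genes Gm10544 (49, 17 and 6 counts in stress pools, 46, 32 and 29 in control pools) and Gm10545 (16, 8 and 2 against 5, 8 and 6). Whether counting used strand is not given. Pcdha10 had 4.196, 3.64 and 4.24 CPM in stress pools and 2.46, 3.37 and 3.50 CPM in control pools (0.37 ± 0.15 SE, unadjusted p = 0.0458, edgeR adjusted p = 0.446). Control pool 1 was lowest, and the groups did not overlap. Pcdha12 had 9.10, 7.22 and 8.00 CPM in stress pools and 5.69, 7.36 and 6.99 CPM in control pools, which overlapped (0.28 ± 0.13 SE, edgeR adjusted p = 0.469).

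Among gamma members, the smallest p belonged to Pcdhgb8, at 22, 19 and 17 counts in stress pools and 11, 10 and 21 counts in control pools. In CPM these were 0.284, 0.288 and 0.329 against 0.159, 0.154 and 0.241, and the groups did not overlap (log2 fold change 0.67 ± 0.27 SE, unadjusted p = 0.0408, edgeR adjusted p = 0.437). Counts this low carry a sizeable counting error. Pcdhga4 had 2.80, 3.37 and 3.37 CPM in stress pools and 2.62, 2.80 and 2.17 CPM in control pools, with stress pool 1 just under control pool 2 (0.33 ± 0.14 SE, edgeR adjusted p = 0.451). Pcdhga5 had 5.27, 5.67 and 5.29 CPM against 4.48, 5.11 and 4.68 CPM, with no overlap (0.19 ± 0.09 SE, edgeR adjusted p = 0.492).

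**Figure D4:**
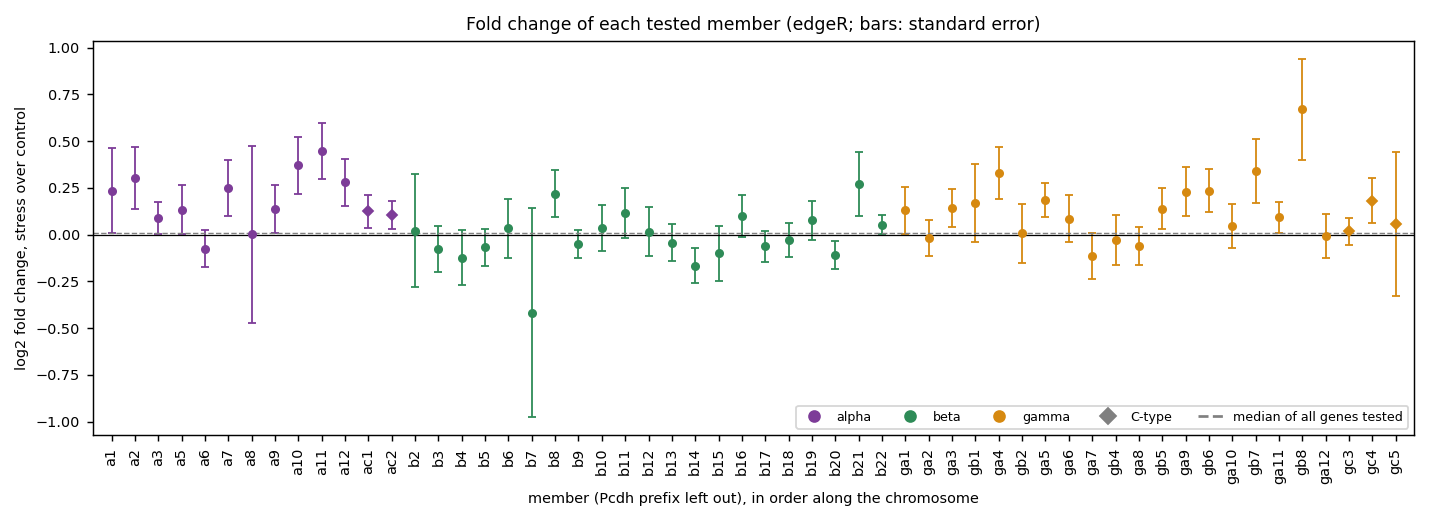
Log2 fold change of prenatal stress over control for the 56 tested members, with bars for the standard error, in order along the chromosome. Alpha alternate members have a median of 0.23, beta members -0.03, and Pcdhb7 at -0.42 has the widest bar (0.56).

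Summed over the alpha cluster, stress pools held 135, 134 and 146 CPM, a mean of 138 ± 6.28, and control pools held 112, 132 and 132 CPM, a mean of 125 ± 11.7. The groups did not overlap, the lowest stress pool being 134 and the highest control pool 132 CPM. The mean was 10.6% higher in stress pools (log2 ratio 0.15), and without control pool 1 the log2 ratio was 0.07. No p is given for a sum over members; 3 pools against 3 cannot go below 0.10 in a two-sided exact permutation test. Split by class, the alpha alternate members summed to 45.0, 43.8 and 49.3 CPM against 36.4, 41.2 and 41.1 CPM, and the alpha C-type members to 89.96, 90.7 and 96.3 CPM against 75.2, 90.7 and 90.5 CPM.

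The beta cluster held 98.03 ± 3.74 CPM in stress pools and 99.6 ± 3.62 CPM in control pools, which overlapped (log2 ratio -0.02, and -0.01 without Pcdhb7). The gamma cluster held 126, 134 and 114 CPM in stress pools and 117, 116 and 122 CPM in control pools, with stress pools at both ends (log2 ratio 0.07; 0.02 when stress pool 2 was left out, 0.13 when stress pool 3 was left out and 0.01 with neither pool numbered 2). The 5 C-type members summed to 134 ± 2.36 CPM in stress pools and 126 ± 9.05 CPM in control pools (log2 ratio 0.09, and 0.03 without control pool 1). The groups did not overlap but came close, at 131.9 CPM in the lowest stress pool and 131.3 CPM in the highest control pool. All 58 members summed to 356, 365 and 362 CPM against 326, 352 and 351 CPM. The 53 alternate members summed to 224, 228 and 229 CPM against 211, 221 and 220 CPM. Neither of these sums overlapped. All these sums share members and were not tested.

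**Figure D5:**
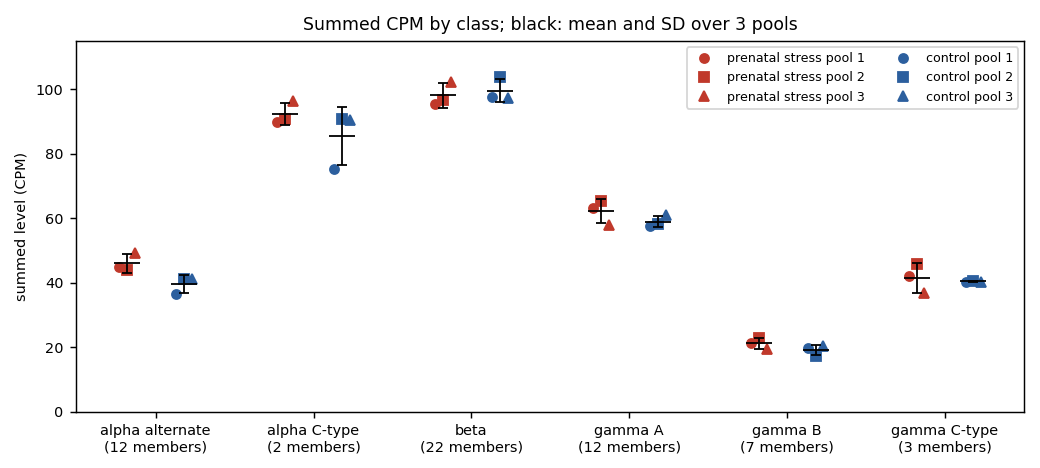
Summed CPM of each class of members, 1 point per pool, prenatal stress in red left of control in blue, with the mean and SD over 3 pools in black. Alpha alternate members sum to 46.0 ± 2.91 in stress pools and 39.6 ± 2.76 CPM in control pools; the beta cluster stands at 98.03 ± 3.74 and 99.6 ± 3.62 CPM.

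Choice among the members of a cluster was read from each member's share of the cluster's total CPM, which does not depend on library scaling. CPM was not divided by own exon length here, so a longer own exon gives a larger share at an equal level per kb. C-type members made up 66.7 ± 0.659% of alpha CPM in stress pools and 68.3 ± 0.791% in control pools, and 33.2 ± 1.01% and 34.1 ± 0.906% of gamma CPM. Both overlapped between groups. Pcdhac2 alone took 48.2, 50.3 and 48.2% of alpha CPM in stress pools and 49.7, 50.5 and 50.5% in control pools. Its difference of -1.32 percentage points was the largest of any alpha member. Pcdhgc3 took 28.1 ± 0.854% of gamma CPM in stress pools and 29.3 ± 0.810% in control pools, the largest difference of any gamma member (-1.21 points).

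The evenness of choice can be given as an effective number of members, the number of members with equal CPM that would have the same Shannon entropy. It was also taken from CPM without division by own exon length, so its absolute size partly reflects exon length. Over whole clusters it was 5.87 ± 0.137 in stress pools and 5.65 ± 0.0754 in control pools for alpha, and 14.6 ± 0.319 and 14.1 ± 0.165 for gamma, with overlap between the groups in both. For the alternate alpha members it was 9.43 ± 0.144 in stress pools and 9.43 ± 0.146 in control pools, for the beta members 17.1 ± 0.419 and 17.2 ± 0.229, and for the alternate gamma members 16.7 ± 0.0919 and 16.5 ± 0.191. Of 57 members with counts, 7 had shares that did not overlap between the groups, which is 12.3%. For CPM, a different quantity, the percentage was 18.1% over all genes, so nothing is read from this count. Pcdha10 (2.91 ± 0.201% against 2.48 ± 0.236%), Pcdha11 (3.89 ± 0.492% against 3.15 ± 0.0944%), Pcdhb8, Pcdhgb6 and Pcdhgb8 were above the controls. Pcdhga8 and Pcdhga12 were below. Of these, Pcdhb8, Pcdhgb6, Pcdhga8 and Pcdhga12 are named after their values were seen.

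No gene of promoter choice and chromatin passed in edgeR or DESeq2. Of 22 such genes, 19 had a positive log2 fold change (52.3% of all genes did), with a median of 0.08 beside 0.01 for all genes. Of the 22, 0 passed over all genes and 3 had an unadjusted p under 0.05 in edgeR, beside 11.1% of all genes. The cohesin partner Pds5b stood at 73.4 ± 3.14 CPM in stress pools and 67.2 ± 1.33 CPM in control pools (0.13 ± 0.04 SE, edgeR adjusted p = 0.366). Smchd1, a chromatin protein known in mice to silence clustered protocadherins, stood at 37.9 ± 2.53 and 34.1 ± 1.25 CPM (0.15 ± 0.06 SE, edgeR adjusted p = 0.402), and the cohesin loader subunit Mau2 at 83.9 ± 5.11 and 76.0 ± 4.36 CPM (0.14 ± 0.06 SE, edgeR adjusted p = 0.442). Ctcf itself stood at 46.2 ± 0.760 and 47.2 ± 1.27 CPM, and Dnmt3b, a DNA methyltransferase that marks alternate promoters in mouse development, at 1.24 ± 0.0636 and 1.28 ± 0.0448 CPM; Ctcf and Dnmt3b are named after their values were seen.

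Proteases and cytoplasmic partners of the protein tails, 21 genes, had a median of -0.03 with 5 positive, and 0 passed in edgeR or DESeq2. Of the 21, 2 had an unadjusted p under 0.05 in edgeR, both lower, beside 5.11% of all genes lower. Pdcd10, an adaptor bound by gamma tails, stood at 73.7 ± 1.55 CPM in stress pools and 79.3 ± 2.402 CPM in control pools (-0.11 ± 0.04 SE, edgeR adjusted p = 0.378). Psenen, a subunit of the gamma-secretase that cleaves the tails, stood at 25.9 ± 0.860 and 27.8 ± 0.454 CPM (-0.10 ± 0.04 SE, edgeR adjusted p = 0.441). The 12 protocadherins outside the clusters had a median of -0.01, 5 were positive and 0 passed in edgeR or DESeq2. Of the 12, 2 had an unadjusted p under 0.05 in edgeR, both lower, beside the same 5.11% of all genes. Pcdh19, a neuronal adhesion molecule, stood at 9.35 ± 0.434 and 10.5 ± 0.150 CPM (-0.17 ± 0.06 SE, edgeR adjusted p = 0.394), and Pcdh12, a protocadherin of endothelial cells, at 1.72 ± 0.0471 and 2.15 ± 0.181 CPM (-0.32 ± 0.12 SE, edgeR adjusted p = 0.429).

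Markers of other cells gave the following setting for these values. The 14 sensory neuron markers summed to 17783 to 18394 CPM in stress pools and 17799 to 18457 CPM in control pools, with a median log2 fold change of 0.03. The 10 satellite glia markers summed to 2880 to 3173 CPM in stress pools and 3226 to 3589 CPM in control pools, with 10 of 10 negative and a median of -0.17, and the 10 Schwann cell markers to 6519 to 8517 against 7419 to 8608 CPM. The 10 fibroblast and endothelial markers summed to 1094 to 1273 against 1058 to 1417 CPM. None of these 4 lists had a marker at 0 in any pool. In edgeR 0 of their markers passed, beside 0.129% of all genes. Over all genes, 11.1% had an unadjusted p under 0.05 in edgeR and 2.07% passed in DESeq2. At an unadjusted p under 0.05 edgeR took 4 satellite glia markers and 1 Schwann cell marker, all lower, 2 sensory neuron markers that were higher and 1 that was lower, and 1 fibroblast and endothelial marker that was higher. DESeq2 took 7 at an adjusted p under 0.05, of which Tlx3, a transcription factor of sensory neurons, was higher and the satellite glia genes Apoe, Ednrb, Fabp7 and Lgi4, the Schwann cell gene Ncmap and the neuronal tubulin gene Tubb3 were lower. Of 14 tested central nervous system markers 3 were positive, with a median of -0.23, and 0 passed in either tool or had an unadjusted p under 0.05 in edgeR. The part of cell makeup in the protocadherin values was not tested.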

How the data were processed

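Poly-A RNA of 6 ganglion pools had been sequenced from stranded, paired-end libraries, per the labels' protocols. The authors deposited raw read counts per gene symbol, 1 file per library. FastQC, STAR 2.4 and HTSeq 0.9.1, with the builds GRCm39 and mm10, are named in the submitters' processing notes; which build, annotation and strand setting served the counting is not stated there, so no coordinates are printed. Reads of no gene (15.3 to 16.2% of each file) were left out.

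The test on these deposited counts was that of edgeR 4.0.16, run in R 4.3.3 (filterByExpr with a minimum count of 10, TMM factors, quasi-likelihood F test, Benjamini-Hochberg over 20146 genes, threshold 0.05). DESeq2 1.42.0 was an alternative. The fit was tested on simulated data. Own-exon bases came from GENCODE M21 (GRCm38): 56 members matched by symbol and 2 by the start of the RefSeq gene. Members, lists and alternatives were chosen with earlier results of these data known. Named members were all C-type members, the 3 highest per cluster per kb and the 6 of smallest p, and up to 3 genes per pathway list.

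The labels give replicate numbers 1 to 3 in both groups. Over 15240 genes, pools with the same number deviated together (correlations of 0.404, 0.225 and 0.17). Pools with different numbers gave -0.325 to 0.143, the highest being stress pool 2 with control pool 3. Every same-number value was over 0.1, but so was the 0.143 between different numbers, and the labels name nothing shared. The main fit, which gave the edgeR values in the text unless marked otherwise, did not pair the pools. A fit with the replicate block was an alternative. No 2 libraries agreed within sampling noise (chi-square per degree of freedom 10.98 to 36.41). Control pool 3 stood most apart: its pairs gave 23.53 to 36.41, and pairs without it 10.98 to 24.28.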

Additional observations from a re-analysis of the deposited data

How the results depend on the processing

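No member passed in any of the 14 alternatives to the edgeR fit, the replicate block included (0 in each; with the block the smallest adjusted p of any member was 0.273, for Pcdha11, and it changed no call of a member). Over its 14 alternatives the adjusted p of Pcdha11 ranged from 0.164 to 0.634. The count of members at an unadjusted p under 0.05 was 3, 5 with a robust spread and 1 to 4 when 1 pool was left out (1 without stress pool 3 and 1 without control pool 1). Over all genes 26 passed, 49 without the low-count filter, 302 with DESeq2, 1 without both pools numbered 2 and 2 to 14 when 1 pool was left out. Of genes in the marker and pathway lists 0 passed in edgeR and 7 in DESeq2 (Tlx3 higher; Apoe, Ednrb, Fabp7, Lgi4, Ncmap and Tubb3 lower). Members whose shares did not overlap numbered 7, and 10 to 16 when 1 pool was left out, where fewer pools overlap less by construction. The log2 ratios of the alpha, beta, gamma and C-type totals ranged from 0.07 to 0.19, -0.05 to 0.01, 0.02 to 0.13 and 0.03 to 0.12 when 1 pool was left out. Among the 16 members named by rule and Pcdhb7, signs turned for 5, at log2 fold changes between -0.06 and 0.06 except Pcdhb7 at -0.42. The cause was not tested. The remaining members were not followed singly. Some of them turned as well, since positive alpha alternate members fell from 10 to 9 of 11 with RLE size factors. Pcdhgc3 ranged from -0.0451 (stress pool 2 left out) to 0.0912 when 1 pool was left out, also below 0 at -0.0159 with stress pool 1 left out, and stood at -0.0438 with neither pool numbered 2. Pcdhgc5 stood at -0.0025 with the replicate block, -0.0111 with the block and a GC and length correction and -0.406 with neither pool numbered 2, and ranged from -0.465 (stress pool 2 left out) to 0.332 when 1 pool was left out, also below 0 at -0.143 with control pool 1 left out. With neither pool numbered 2, Pcdhb9 stood at 0.0274 and Pcdhb17 at 0.0225. Pcdhb17 ranged from -0.134 to 0.00666 (control pool 2 left out) when 1 pool was left out, and Pcdhb7 stood at 0.0517 with stress pool 1 left out. How far counting depth and the number of pools each limit precision was not tested.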
